A study of Mus musculus with 8 samples.

Results

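The synaptotagmins Syt1, Syt2, Syt3, Syt4, Syt5, Syt7 and Syt11 and the complexins Cplx1 and Cplx2 were followed at every probe set of the Affymetrix 430A and 430B arrays that the platform annotation gives to 1 of these 9 genes and to no other. A probe set is a group of short oligonucleotides on the array that together report 1 transcript. The genes had 26 such probe sets of 45137 in all, 17 of 22626 on 430A and 9 of 22511 on 430B. Cerebellar RNA came from 4 male mice with no exposure to alcohol. Mice 48 and 51 were Inbred Long Sleep (ILS) animals and mice 55 and 56 were Inbred Short Sleep (ISS) animals, from strains bred for long or short loss of righting after ethanol. Each mouse was hybridised once to 430A and once to 430B, and the series asks how baseline expression differs between the strains. All 4 mice had had free access to food and water for 14 days after a move between facilities. The genes were chosen with earlier results known. Syt4, Syt11 and Cplx2 were taken to be the genes whose strain differences on 430A led to the choice. The strain differences of all 9 genes are therefore given as a description, and the whole-chip test is used only to say which probe sets passed its threshold.

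Synaptotagmins are membrane proteins of synaptic and secretory vesicles that carry a pair of C2 domains, calcium- and lipid-binding modules that face the cytosol. In several members calcium binding to these domains triggers fusion of the vesicle with the cell membrane, while in others the domains bind calcium weakly or not at all. Complexins are small cytosolic proteins that bind the assembled SNARE complex, hold primed vesicles back from fusing and help them fuse once calcium enters. In the cerebellum this machinery serves the fast synapses of granule, basket, stellate and Purkinje cells.

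Signals below are linear MAS5 intensities, each array rescaled to a 2% trimmed mean of 500, and each is the value of 1 mouse. A log2 difference is the ILS mean minus the ISS mean of log2 signal, so that a positive value means a higher signal in ILS, and its error is the standard error (SE) from limma over 4 mice. A probe set was tested where its mean log2 signal reached the median of the chip, and was called at an adjusted p under 0.05 over all tested probe sets of that chip. On 430A, 15 of the 17 probe sets were tested, and on 430B all 9. Levels of different probe sets are not comparable, since each has its own oligonucleotides.

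Of the 15 tested on 430A, 4 were called, all higher in ILS. Of all 11313 probe sets tested on that chip, 2.93% were called, 1.61% in that direction. They were both probe sets of Syt4, 1 of the 3 of Syt11 and the only one of Cplx2. No probe set of these genes was called lower in ILS by limma, against 1.33% of all tested. In that direction 3 had an unadjusted limma p under 0.05, as had 1258 of all 11313 tested. On 430B none of the 9 was called in either direction by limma, against 0.48% of all 11256 tested (0.195% higher and 0.284% lower in ILS). There 1 had an unadjusted limma p under 0.05, as had 9.02% of all tested. These shares are printed as background and nothing is read from them, since the genes were chosen on the same contrast. Less RNA per cell and fewer cells of a type cannot be told apart in whole cerebellum.

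**Figure D1:**
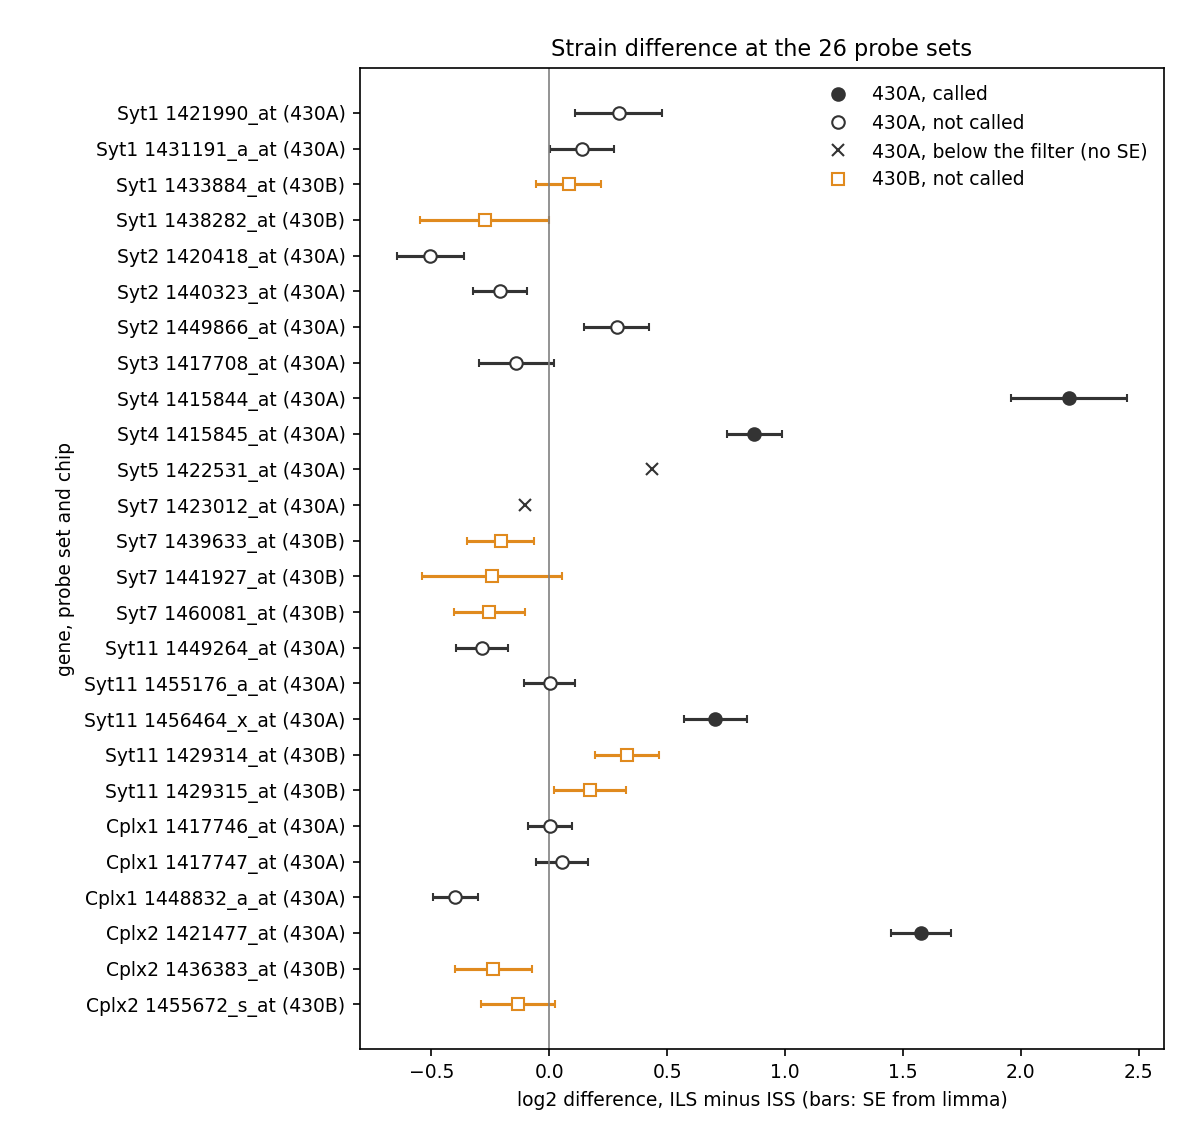
Log2 difference, ILS minus ISS, on the x axis at each of the 26 probe sets, grouped by gene on the y axis, with bars for the SE from limma (4 mice). Filled circles are the 4 called probe sets of 430A, open circles the 11 tested and not called, crosses the 2 below the filter, and open squares the 9 probe sets of 430B; Syt4 1415844_at (2.20) and Cplx2 1421477_at (1.58) lie farthest to the right.

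Syt4, a synaptotagmin of dense-core vesicles whose C2 domains bind calcium poorly in mammals, was higher in ILS at both of its probe sets on 430A. At 1415844_at its signal was 1427 and 945 in the ILS mice, against 309.9 and 205 in the ISS mice. Even the dimmer ILS mouse stood well above the brighter ISS mouse, so the strains did not overlap. The log2 difference was 2.20 ± 0.25 (SE), a 4.61-fold higher signal in ILS. Of the ISS mice, 56 lay at the median of its array (204.8) and 55 somewhat above its own (212.5), while both ILS mice lay far above theirs (239.1 and 226.6).

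At 1415845_at the 4 mice were much tighter. The signal of Syt4 was 2486 and 2536 in ILS, against 1347 and 1400.0 in ISS. The log2 difference was 0.87 ± 0.11 (SE), a 1.83-fold higher signal in ILS. Both probe sets were designed from the same source sequence, per the platform annotation, and agreed in direction but not in size. Per mouse, the log2 signal of 1415844_at minus that of 1415845_at was -0.80 and -1.42 in ILS, against -2.12 and -2.77 in ISS. The pair therefore lay 1.33 closer together in ILS, with a within-strain SD of 0.451 (n = 2 per strain), and the strains did not overlap in this measure either. Syt4 had no other probe set on either chip by the rule used.

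Syt11, the closest relative of Syt4 and likewise a synaptotagmin that does not act as a calcium sensor, was measured by 3 probe sets on 430A that did not move together. The one called was 1456464_x_at, of a kind in which some oligonucleotides match other sequences too. Its signal was 2856 and 3357 in ILS, against 1772 and 2037 in ISS, a log2 difference of 0.70 ± 0.13 (SE). The strains did not overlap there, but the call lay near the threshold (limma adjusted p = 0.0355). With every mouse kept, it ended with no filter and with no intensity trend (limma adjusted p of 0.0666 and 0.0675). It also ended when any 1 of ILS mouse 48, ILS mouse 51 or ISS mouse 55 was left out (log2 differences of 0.82, 0.59 and 0.60). Those fits have fewer mice, so they cannot show whether the call rested on a particular mouse. At 1455176_a_at the signal was 3788 and 3645 in ILS, against 3942 and 3492 in ISS, and the log2 difference was 0.00 ± 0.11 (SE). At 1449264_at it was 2969 and 3398 in ILS, against 3789 and 3955 in ISS, a log2 difference of -0.29 ± 0.11 (SE) that was not called. One probe set of Syt11 was thus higher in ILS in every mouse, one overlapped and one was lower in ILS in every mouse.

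On 430B, where 2 further probe sets share a source sequence, Syt11 gave positive values without a call. At 1429314_at the signal was 16316 and 14792 in ILS, against 13105 and 11684 in ISS, a log2 difference of 0.33 ± 0.14 (SE), with no overlap between the strains. At 1429315_at it was 13193 and 10205 in ILS, against 10636 and 9981 in ISS, a log2 difference of 0.17 ± 0.15 (SE), and the strains overlapped. The 5 probe sets of Syt11 over both chips therefore spanned -0.29 to 0.70.

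**Figure D2:**
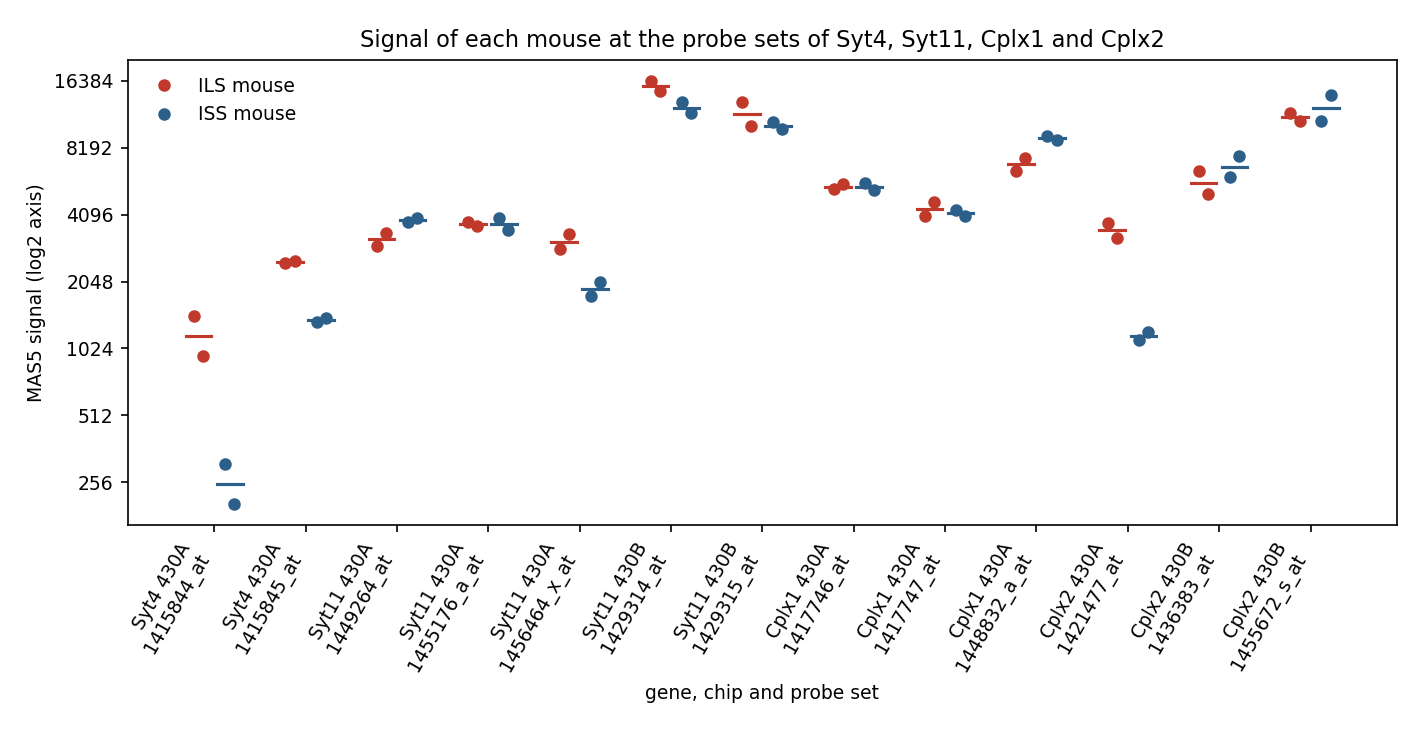
MAS5 signal on a log2 y axis at the 13 probe sets of Syt4, Syt11, Cplx1 and Cplx2 (x axis), with a point for each ILS mouse on the left and each ISS mouse on the right, and a line at the strain's geometric mean. The ILS points lie clear above the ISS points at both probe sets of Syt4 and at Cplx2 1421477_at, where ILS stood at 3748 and 3224 and ISS at 1116 and 1216, while the strains overlap at both Cplx2 probe sets of 430B; heights are comparable within a probe set only.

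Cplx2, a complexin of many central synapses, was called on 430A and not on 430B. At 1421477_at its signal was 3748 and 3224 in ILS, against 1116 and 1216 in ISS. The gap between the strains was far larger than the spread within either, and the log2 difference was 1.58 ± 0.13 (SE), a 2.98-fold higher signal in ILS. On 430B, 1436383_at gave 6415 and 5084 in ILS, against 6045 and 7493 in ISS, a log2 difference of -0.24 ± 0.16 (SE). The other probe set of Cplx2 there, 1455672_s_at, is of a kind whose oligonucleotides are shared by more than 1 transcript, and gave 11696 and 10807 in ILS, against 10742 and 14136 in ISS, a log2 difference of -0.13 ± 0.16 (SE). The strains overlapped at both.

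The 430B probe sets of Cplx2 were designed from 1 source sequence and that of 430A from another. Per mouse, 1455672_s_at stood above 1436383_at by 0.87 and 1.09 on the log2 scale in ILS, against 0.83 and 0.92 in ISS, so the pair on 430B moved together within the spread between mice. The 430A and 430B tables were scaled separately, so the fold changes of Cplx2 on the chips are set side by side and their difference was not tested.

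Cplx1, the paralogue of Cplx2 and a complexin of fast synapses, was measured by 3 probe sets from 1 source sequence, all on 430A, and none was called. At 1417746_at its signal was 5346 and 5612 in ILS, against 5669 and 5272 in ISS, a log2 difference of 0.00 ± 0.09 (SE). At 1417747_at it was 4024 and 4658 in ILS, against 4313 and 4032 in ISS, a log2 difference of 0.05 ± 0.11 (SE). The strains overlapped at both. At 1448832_a_at it was 6442 and 7352 in ILS, against 9236 and 8905 in ISS, a log2 difference of -0.40 ± 0.10 (SE). The strains did not overlap there, and this value came under the threshold with equal array medians or without ILS mouse 51 (adjusted p of 0.0105 and 0.0464 from limma). Per mouse, the log2 signal of 1417746_at minus that of 1448832_a_at was -0.27 and -0.39 in ILS, against -0.70 and -0.76 in ISS.

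The upstream sequences of 3 genes are shown because Cplx2 and Syt11 had a called probe set and Cplx1, the paralogue of Cplx2, had none. They are the 250 bases before the annotated start of each gene, 5′ to 3′, in the RefSeq sequence of GRCm38.p6, which is the genome of C57BL/6J and of neither strain measured here. Of the 9 genes, 6 had an entry in the promoter table. Syt4, which also had called probe sets, had no entry and could not be shown. Capitals mark each GC box (GGGCGG or its reverse complement CCGCCC), the binding sequence of Sp1-type factors.
Cplx2 (chr13:54302306-54302555, plus strand): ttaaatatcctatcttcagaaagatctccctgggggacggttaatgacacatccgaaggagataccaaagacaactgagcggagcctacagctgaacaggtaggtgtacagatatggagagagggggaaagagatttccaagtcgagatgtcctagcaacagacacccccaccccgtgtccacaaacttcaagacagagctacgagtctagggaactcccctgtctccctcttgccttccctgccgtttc
Syt11 (chr3:88772600-88772849, minus strand): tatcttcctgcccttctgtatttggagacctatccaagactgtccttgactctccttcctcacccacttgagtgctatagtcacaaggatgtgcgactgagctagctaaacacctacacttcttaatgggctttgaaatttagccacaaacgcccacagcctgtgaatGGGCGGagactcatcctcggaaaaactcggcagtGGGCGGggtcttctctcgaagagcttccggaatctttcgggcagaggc
Cplx1 (chr5:108550028-108550277, minus strand): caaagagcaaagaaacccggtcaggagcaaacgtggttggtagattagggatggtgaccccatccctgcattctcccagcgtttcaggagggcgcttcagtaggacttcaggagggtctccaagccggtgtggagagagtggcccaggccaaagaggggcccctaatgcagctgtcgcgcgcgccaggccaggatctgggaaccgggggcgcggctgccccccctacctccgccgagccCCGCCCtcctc
The window of Syt11 held 2 GC boxes and that of Cplx1 held 1, while none was found in that of Cplx2. On either strand, 32.7% of the 32851 windows in the table hold one. None of the 3 windows held CACGTG (6.02% of all windows), TGACGTCA (1.55%), CCAAT (33.8%) or TATAAA (12.4%), searched on both strands, and the 2 GC boxes of Syt11 did not overlap each other. Guanine and cytosine made up 50.8% of the Cplx2 window, 51.2% of that of Syt11 and 64.8% of that of Cplx1, against a median of 52.4% over all windows.

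Syt1 and Syt2, the calcium sensors of fast transmitter release, had no called probe set. For Syt1, which serves most forebrain synapses, 1421990_at gave 1679 and 2021 in ILS, against 1259 and 1795 in ISS, and 1431191_a_at gave 1115 and 1288 in ILS, against 1063 and 1115 in ISS. Their log2 differences were 0.29 ± 0.18 and 0.14 ± 0.13 (SE). The ISS mice alone differed from each other at 1421990_at by more than the strain means did. On 430B, 1433884_at gave 16359 and 15086 in ILS, against 13800 and 15938 in ISS, and 1438282_at gave 358 and 311 in ILS, against 349 and 467 in ISS (log2 differences of 0.08 ± 0.14 and -0.27 ± 0.27, SE). The strains overlapped at 3 of the 4 probe sets of Syt1, and at 1431191_a_at the lower ILS mouse stood level with the higher ISS mouse.

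Syt2, the fast sensor of many hindbrain synapses, had tight replicates and probe sets of opposite sign. At 1449866_at its signal was 629.9 and 686 in ILS, against 538 and 541 in ISS, a log2 difference of 0.29 ± 0.14 (SE). At 1420418_at it was 369.6 and 363 in ILS, against 527 and 514 in ISS, a log2 difference of -0.51 ± 0.14 (SE). These probe sets come from the same source sequence, and at neither did the strains overlap. Per mouse, 1449866_at stood above 1420418_at by 0.77 and 0.92 on the log2 scale in ILS, against 0.03 and 0.08 in ISS. The third, 1440323_at, gave 1812 and 1774 in ILS, against 2077 and 2066 in ISS, a log2 difference of -0.21 ± 0.11 (SE). With equal array medians 1420418_at was called lower in ILS (-0.66, limma adjusted p = 0.0219), and it was not called under the other alternatives.

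Syt3, Syt5 and Syt7 are synaptotagmins with a high affinity for calcium or with roles outside the fast synaptic vesicle, and none of their probe sets was called. For Syt3, 1417708_at gave 340.1 and 402 in ILS, against 409 and 407 in ISS, a log2 difference of -0.14 ± 0.16 (SE). Both probe sets of 430A that stayed below the filter belonged to this group. Syt5 had 255.5 and 249 at 1422531_at in ILS, against 187 and 186 in ISS, where both values lay below the medians of their arrays. Under the scaling used it was therefore at least 1.21-fold higher in ILS, without a test. The log2 difference of the signals themselves fell from 0.44 to 0.28 with equal array medians. Syt7 had 181 and 117 at 1423012_at in ILS, against 163 and 149.9 in ISS, below the array median in all 4 mice, and no fold is given.

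Syt7, the slow sensor of asynchronous release and synaptic facilitation, had 3 further probe sets on 430B, all with negative log2 differences. At 1439633_at it had 3679 and 3872 in ILS, against 3989 and 4756.5 in ISS (-0.21 ± 0.14, SE), and at 1460081_at 3607 and 3082 in ILS, against 3662 and 4319.8 in ISS (-0.25 ± 0.15, SE). The strains did not overlap at these, though by narrow margins. At 1441927_at the ILS mice, at 1839 and 934, overlapped the ISS mice, at 1301 and 1853 (-0.24 ± 0.30, SE). None of the 3 was called.

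Probe sets of one gene could be compared within a chip in 17 pairs from 7 genes. In 7 pairs the log2 differences between the strains had opposite signs. Some of these rest on a value near 0 whose sign turned in other settings. Such values were those of Syt11 1455176_a_at (0.002), Cplx1 1417746_at (0.003), Cplx1 1417747_at (0.05) and Syt1 1433884_at (0.08). In 11 pairs the per-mouse difference between the probe sets did not overlap between the strains. The share of such pairs over all genes was not computed and pairs reuse probe sets, so nothing is read from either count. The gaps are given by source sequence as a description only. The pairs are few, share probe sets and include genes chosen on this contrast, so they cannot show whether the source sequence matters. Over the 7 pairs from one source sequence the gap between log2 differences had a median of 0.401 (0.0514 to 1.33), against 0.293 (0.01 to 0.99) over the 10 pairs from different ones, and 3 and 4 of them had opposite signs. The widest gaps were those of Syt4 (1.33), of Syt11 1456464_x_at against 1449264_at (0.99) and of Syt2 1449866_at against 1420418_at (0.79), each wider than its spread between mice of one strain (SD of 0.451, 0.0722 and 0.0776). The gaps between the Syt7 probe sets of 430B were at most 0.0476, but the spread between mice was wider (SD of 0.541, 0.15 and 0.399), and with 1 mouse left out the gap of 1439633_at and 1441927_at ranged from -0.488 to 0.563.

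**Figure D3:**
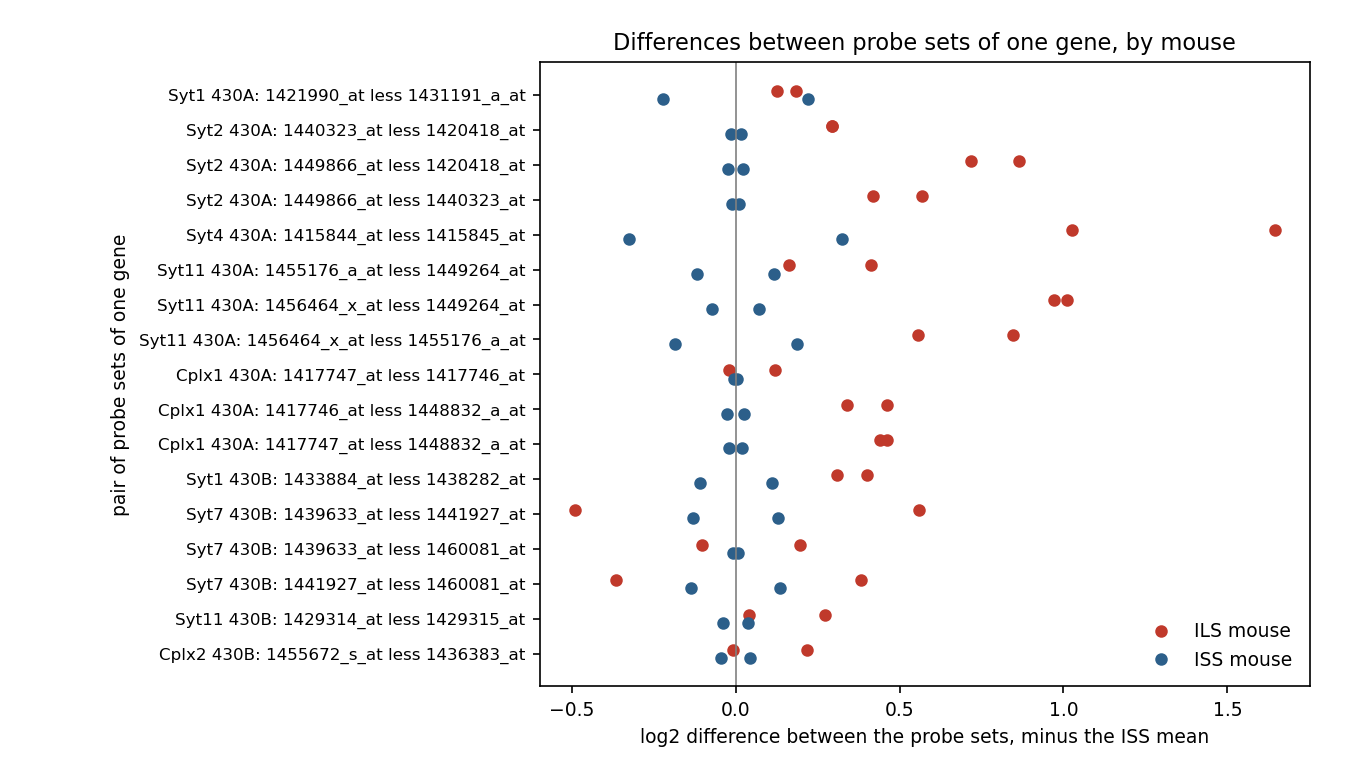
Log2 signal of one probe set minus that of another of the same gene, by mouse, after subtracting the ISS mean (x axis), for the 17 pairs (y axis). The probe set with the larger strain difference is named first, so the ILS mean lies to the right by construction; the ILS and ISS mice lie apart for Syt4 (gap of 1.33), Syt11 and Syt2 and mix for the Syt7 pairs of 430B and for Cplx2 on 430B.

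Set against all tested probe sets, the values of these genes on 430A had a median absolute log2 difference of 0.285, against 0.189 over the chip, and a median of 0.0542, against -0.0108. The strains did not overlap at 11 of the 15 tested, 73.3%, against 54.3% of all tested, with ILS above ISS at 6 (25.6% of all tested) and below at 5 (28.7%). On 430B the median absolute log2 difference was 0.237, against 0.183 over the chip, and the strains did not overlap at 3 of 9, against 38.9% of all tested, with ILS above ISS at 1 (19.6% of all tested) and below at 2 (19.3%). The choice of the genes on this contrast means that the values of 430A describe them and are no evidence about the family.

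Genes whose values over the 4 mice on 430A lay closest to each called probe set were found by the Euclidean distance between mean-centred log2 values, over 10449 probe sets with 1 symbol and no member gene. Nearest to Syt4 1415844_at were Vamp3 (distance 0.596, log2 difference 2.03), Sdc4 (0.666 and 1.71) and Smim10l1 (0.71 and 1.55). Nearest to Syt4 1415845_at were Ttyh2 (0.0723 and 0.93), Lims1 (0.0744 and 0.90) and Epor (0.0837 and 0.95). The probe sets of Syt4 had none of these nearest genes in common. Nearest to Cplx2 1421477_at were Ggps1 (0.126 and 1.56), Ssb (0.154 and 1.504) and Chchd4 (0.16 and 1.64). Nearest to Syt11 1456464_x_at were Ttc7b (0.0324 and 0.69), Chac1 (0.0614 and 0.66) and Galnt10 (0.0705 and 0.70). With 4 mice in 2 strains such a distance mostly orders genes by the size of their strain difference.

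Among the other synaptotagmins and complexins, 9 of 12 listed genes were on 430A and 4 were tested there. Syt13, an atypical synaptotagmin without calcium binding, was lower in ILS at 1451045_at, with 542 and 681 in ILS, against 1060.2 and 1020.4 in ISS (log2 difference of -0.78 ± 0.15, SE, limma adjusted p = 0.0393). The call ended without ILS mouse 48 (-0.61, adjusted p = 0.141), without ISS mouse 56 (-0.80, adjusted p = 0.0577) and in 3 other settings. A second probe set of Syt13, on 430B, stood at -0.08 ± 0.14 (SE) and was not called. The other 3 tested on 430A were not called, and Cplx3, Cplx4, Syt6, Syt8 and Syt10 lay below the array medians of 430A in all 4 mice. On 430B, 2 of these genes were tested, Syt13 and Syt14 (-0.07 ± 0.19, SE), and neither was called.

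In a list of proteins related to synaptotagmins or rabphilin, not all with paired C2 domains, 4 genes were tested on 430A and 3 on 430B. None was called. Doc2b, a high-affinity calcium sensor of spontaneous release, stood at -0.52 ± 0.16 (SE) at one probe set and Esyt1, a tether between the endoplasmic reticulum and the cell membrane, at 0.20 ± 0.20. On 430B the rabphilin-like Rph3al stood at 0.26 ± 0.20 (SE) and Rph3a, a Rab3 effector, at -0.21 ± 0.17. Of the SNARE proteins and other fusion partners, 21 probe sets of 11 genes were tested on 430A and 10 probe sets of 5 genes on 430B, and limma called none. Their smallest unadjusted p-values on 430A belonged to Napb (0.36 ± 0.13, SE), which helps take SNARE complexes apart, and to the active zone protein Rims2 (-0.42 ± 0.16). On 430B they belonged to Stxbp5 (0.42 ± 0.19), which binds syntaxin, and Rims2 (0.22 ± 0.27). Each is 1 probe set of several. The other tested ones stood at 0.08 to 0.16 for Napb and -0.25 for Rims2 on 430A. On 430B they stood at 0.10 and 0.18 for Stxbp5 and at 0.02 for Rims2. At the brightest probe set of each gene the fusion partners had a median log2 difference of -0.0863 on 430A (11 genes) and of 0.0459 on 430B (5 genes).

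Other measures differed between the strains on the same arrays, and their part in the differences above was not tested. The 18S ribosomal RNA control for the 3′ part was 538 and 801 in ILS, against 147 and 142 in ISS, on 430A, and 2189 and 2585 in ILS, against 545 and 712 in ISS, on 430B. The 3′ to 5′ ratios of the Gapdh control overlapped between the strains (0.743 and 0.855 in ILS, 0.783 and 0.783 in ISS on 430A). Both ILS arrays of 430A shared a fluidics station and preceded the ISS arrays at the scanner, so station, scan order and strain cannot be told apart on that chip. On 430B the ISS arrays were scanned before the ILS arrays, so scan order and strain cannot be told apart there either, while 3 of the 4 arrays shared a station.

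Markers of other cell types were summed at the brightest probe set per gene, with the lower sum of a strain given before the higher. Of 7 microglial genes on 430A, 6 were tested and Ctss, C1qb and C1qc were called, all higher in ILS, with sums of 5839 and 6015 in ILS, against 3700 and 4520 in ISS. Of 6 Purkinje cell genes on 430A, Ppp1r17 was called, lower in ILS (log2 difference of -0.90), with sums of 20648 and 21617 in ILS, against 24406 and 29534 in ISS. The Purkinje cell markers did not move one way, since Car8 was called higher in ILS at 1 probe set of 430B (1.51), where the sums overlapped (6405 and 9111 in ILS, 6562 and 10061 in ISS). Of 6 oligodendrocyte genes on 430A, Cldn11 was called, higher in ILS (0.78), with sums of 29313 and 30656 in ILS, against 27111 and 29225 in ISS. The oligodendrocyte markers did not move one way either. At the brightest probe sets 3 of the 6 had positive log2 differences, with a median of 0.0145. Much of each sum was Mbp, at 12786 and 11010 in ILS, against 10133 and 10087 in ISS. Of 7 Bergmann glia and astrocyte genes on 430A none was called by limma and the sums were 25742 and 26676 in ILS, against 26685 and 26699 in ISS. On 430B Gfap, an intermediate filament of astrocytes, was called lower in ILS (-2.37). Its ILS signals there (219 and 287) lay near the medians of their arrays (229.6 and 261.4). The 430A probe sets of Gfap stood at -1.05 and -0.21 and were not called. Of 6 neuroendocrine genes on 430A, 4 were tested and Oxt was called, higher in ILS. The sums over all 6 overlapped (11548 and 12314 in ILS, 11252 and 11704 in ISS). The sums of 7 granule cell genes (20999 and 25743 in ILS, 25091 and 28247 in ISS) and of 4 choroid plexus genes (12128 and 12822 in ILS, 11490 and 13814.5 in ISS) overlapped on 430A, with no call by limma. All 6 Purkinje cell genes and 6 of the 7 granule cell genes on 430A were bright enough to be tested. Of 4 forebrain neuron markers on 430A, Camk2a, Neurod6 and Tbr1 lay below the array medians in all 4 mice and Lamp5 was tested and not called, and on 430B 4 probe sets of Camk2a were bright enough to be tested and none was called.

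The settings were varied for each called probe set. Cplx2 1421477_at and Syt4 1415845_at were called in all 13 alternatives, with log2 differences of 1.42 to 1.69 and 0.71 to 0.91. Syt4 1415844_at was called in all but the stricter filter, under which it was not tested, with log2 differences of 1.91 to 2.50. Syt11 1456464_x_at lost its call in 5 of the 13, at 0.55 to 0.82. Equal array medians moved the median of all probe sets of 430A by -0.158 on the log2 scale, and none of the 4 changed sign with it.

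**Figure D4:**
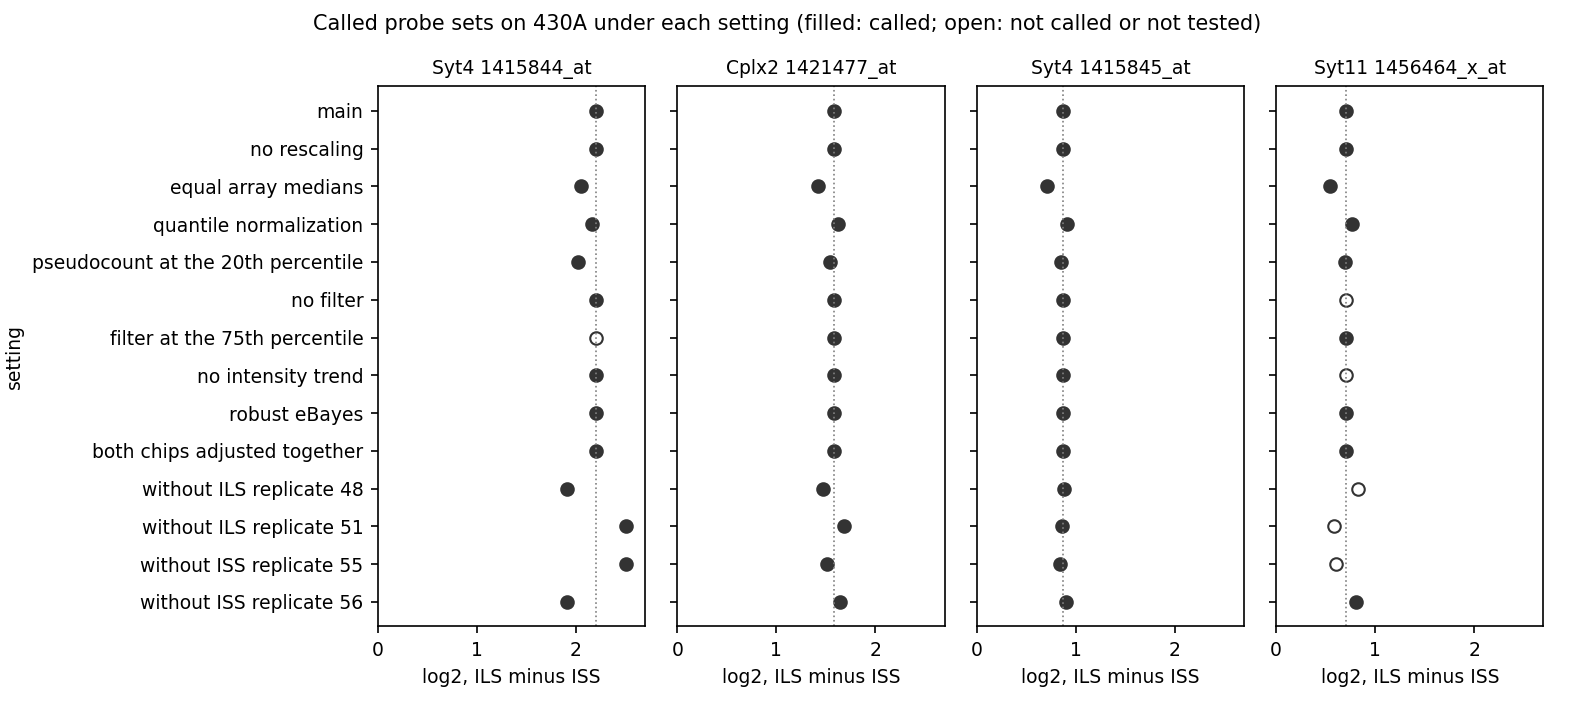
Log2 difference, ILS minus ISS (x axis), of the 4 called probe sets of 430A in the setting used (main) and 13 alternatives (y axis). Filled points are calls and open points are settings with no call or, for Syt4 1415844_at at the 75th percentile, no test; every point lies to the right of 0, and Syt11 1456464_x_at has 5 open points.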

How the data were processed

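Per the labels' protocols, 10 µg of total RNA from each cerebellum was labelled with biotin, and 8 arrays were hybridised. The deposited values are linear signal intensities; the authors computed them with MAS5, according to the submitters' processing notes, and from the values every array had a 2% trimmed mean of about 500. Deposited experiment records of another kind (unit other) gave chip type, station and scan order, per the file headers. Each array was brought to a trimmed mean of 500 and its values to log2, without the 64 control probe sets per chip. For each chip a limma model (version 3.58.1 in R 4.3.3, its eBayes step following the intensity trend) tested ILS against ISS, two-sided, at probe sets with a mean log2 value at or above the chip's median (11313 on 430A, 11256 on 430B). Benjamini-Hochberg adjustment ran within the chip. Replicates are separate mice. Where both values of a strain lay below their array medians, the fold is a lower bound, taken against the higher of the median and the value. Gene symbols came from the platform annotation, and all 9 were in the RefSeq gene table. The genes, lists and tests were chosen with earlier results of these data known. All probe sets of the 9 genes are named. In each companion list the called genes are named, or else the 2 with the smallest unadjusted p, and for likeness the 3 nearest genes. The steps were tested on simulated data. Alternatives were no rescaling, equal medians, quantile normalization, an added constant (45.1 on 430A, 59.4 on 430B, the 20th percentile), a filter dropped or raised to the 75th percentile, a trend-free or robust eBayes, joint adjustment, a station block and leaving out each mouse. Amino acid and oligonucleotide sequences were not used here.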

Additional observations from a re-analysis of the deposited data

How the results depend on the processing

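Leaving out 1 mouse at a time gave 3 to 4 member probe sets called higher in ILS on 430A and 0 to 1 called lower, and equal array medians gave 2 called lower (Syt2 1420418_at and Cplx1 1448832_a_at). On 430B no alternative called a member probe set. The sign held in every setting at 17 of 26 probe sets. At Syt7 1423012_at, below the filter on 430A, it turned from negative to positive without ILS mouse 51. With equal medians the sign turned at Syt1 1431191_a_at (-0.019), Syt11 1455176_a_at (-0.16), Cplx1 1417746_at (-0.16) and Cplx1 1417747_at (-0.10), and with the station block at Syt11 1429315_at (-0.014). On 430B only ILS mouse 48 was at the other station. The log2 difference under the block is therefore that without this mouse, and station and mouse cannot be told apart. With 1 mouse left out, the log2 difference ranged from -0.085 to 0.090 at Syt11 1455176_a_at, -0.049 to 0.055 at Cplx1 1417746_at, -0.051 to 0.16 at Cplx1 1417747_at, -0.021 to 0.19 at Syt1 1433884_at, -0.73 to 0.24 at Syt7 1441927_at, -0.014 to 0.36 at Syt11 1429315_at and -0.33 to 0.066 at Cplx2 1455672_s_at. Among companion genes it ranged from -0.060 to 0.46 for Esyt1, and on 430B from -0.20 to 0.045 for Syt13, -0.27 to 0.14 for Syt14 and -0.012 to 0.45 for Rims2. With equal medians Doc2b (-0.67) and Rims2 on 430A (-0.58) were called lower. The gap between the Syt4 probe sets ranged from 1.01 to 1.66 that of Cplx2 on 430B from -0.0062 to 0.22, and those of Syt7 from -0.49 to 0.56, -0.10 to 0.20 and -0.37 to 0.39. Counts over the whole chip varied more. On 430A, 182 were higher and 150 lower, against 73 and 63 with no filter, 75 and 88 with the stricter one, 935 lower with equal medians, 92 lower without the trend, 85 lower with joint adjustment, and 51 to 418 higher and 56 to 245 lower with 1 mouse left out. On 430B, 22 were higher and 32 lower, against 7 and 6 with no filter, 2 and 2 without the trend, 39 and 55 with joint adjustment, 7 and 17 with the station block, and 4 to 52 and 14 to 29 with 1 mouse left out. The cause of these shifts was not tested. The 2 mice per strain limit precision, and a station block could not be fitted on 430A. No paired analysis was possible because the strains share no mouse numbers.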
